A study of Mus musculus with 7 samples.

Results

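The regions described here were stretches of the mouse genome at which both C-MYC ChIP-seq replicates held a peak and neither replicate of SOX2 nor of RNA polymerase II (POLII) did. Merging C-MYC peaks with 1 bp or more in common gave 50600 regions, and 35723 of them held a peak of both replicates. Of these 35723 C-MYC regions, 7397 touched no SOX2 and no POLII peak and are called C-MYC-only regions. They were 20.7% of the C-MYC regions (95% Wilson interval 20.3 to 21.1, which covers counting error only). The peaks of all 6 lists together merged into 115440 regions.

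C-MYC is a basic helix-loop-helix leucine zipper protein that binds DNA as a dimer with MAX and prefers a short palindromic element called the E-box. It is best known for binding at promoters that are already open and loaded with POLII, where it raises transcription of genes for growth, ribosome production and the cell cycle. It also binds at enhancers and at weaker sites in open chromatin. SOX2 is an HMG-box transcription factor that keeps otic and neural progenitors in a multipotent state, and POLII is the enzyme that transcribes protein-coding genes. A C-MYC peak with neither partner therefore marks called C-MYC enrichment at a place where these ChIP experiments called no SOX2 and no polymerase peak.

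The cells were immortalized multipotent otic progenitor (iMOP) cells, a mouse line derived from embryonic cochlear progenitors with a *c-Myc* retrovirus. All samples came from cells that proliferated as floating otospheres in DMEM/F12 medium with B27 and 20 ng/ml of bFGF, with no other treatment in the labels of these samples. Chromatin was precipitated with an antibody against POLII (clone 4H8), C-MYC (N-262) or SOX2 (clone 6F1.2), with 2 biological replicates each. Whether the replicates came from separate lines is not stated in the sources used here, and the 1 input DNA sample was not analysed here. Peaks per list ranged between 26637 and 53528 and tags in peaks between 1705241 and 4488517, and depth is known only in that form. Positions are given on build mm9. No genome or annotation of that build was used here, so no gene, promoter or sequence was assigned to a region.

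The 2 C-MYC libraries were close to each other, whereas the SOX2 and the POLII pairs were not. With the expected split taken from the summed tags of the regions compared, the chi-square per degree of freedom between the C-MYC replicates was 0.990 over the 35723 regions, where sampling noise alone gives 1. For regions held by both replicates of an antibody the same value was 29.4 for SOX2 and 74.9 for POLII. It was 0.745 over the C-MYC-only regions, and the requirement of a peak in both replicates limits how far these values can differ. Where the mean was at least 100 tags the replicates differed by more than sampling noise, with 1.51 over 9027 C-MYC regions and 3.68 over the 269 C-MYC-only regions among them. Because the libraries differed by no more than the sampling noise over all regions, they were counted as 1 sample, although the regions with many tags show that they are not identical. Values are therefore given for each replicate, without an SD and without a test, and a sign-flip permutation test over 2 libraries could not go below p = 0.5.

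The number of C-MYC-only regions depended on requiring both C-MYC replicates. With C-MYC replicate 2 alone, that is without replicate 1, 12477 regions met the rule, and without replicate 2 there were 11497. Regions found in 1 C-MYC replicate alone were often without partners. Replicate 1 had 6535 such regions, of which 4028 (61.6%, 95% Wilson interval 60.5 to 62.8) touched no SOX2 or POLII peak. Replicate 2 had 8342, of which 5053 (60.6%, interval 59.5 to 61.6) touched none. The median of these single-replicate regions without partners was 13 tags in either replicate, below the medians of the regions held by both. Leaving out 1 SOX2 or POLII list gave from 8018 to 9659 regions.

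C-MYC-only regions carried few tags. In replicate 1 the median was 22 tags, with quartiles of 15 and 35 and a range from 9 to 682. In replicate 2 the median was 24 tags, with quartiles of 16 and 40 and a range from 9 to 775. The values overlapped those of every other class, but their centre was the lowest of the 4 classes in both replicates. C-MYC regions that also touched SOX2 alone (5283 regions) had medians of 27 and 30 tags. Those that also touched POLII alone (2258 regions) had medians of 31 and 35 tags. The 20785 regions with all 3 proteins had medians of 74 and 82 tags, so the step from 1 partner to both was larger than the step from none to 1. In these classes a peak in either replicate of SOX2 or of POLII was enough, whereas C-MYC needed both. Only 2496 regions were touched by all 4 SOX2 and POLII lists. POLII replicate 1 touched 5111 of the C-MYC regions and replicate 2 touched 21630. Per 1000000 tags in C-MYC peaks, C-MYC-only regions had medians of 7.70 and 7.61 and regions with all 3 proteins had 25.9 and 26.0, a difference of 3.36 and 3.42 times. The class is chosen by the absence of partner peaks and not by C-MYC tags. The choice is still not free of tags, because longer regions have more bases at which to touch a peak and also carry more tags. These differences describe the same libraries in 4 classes of regions, and regions are not replicates.

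**Figure D1:**
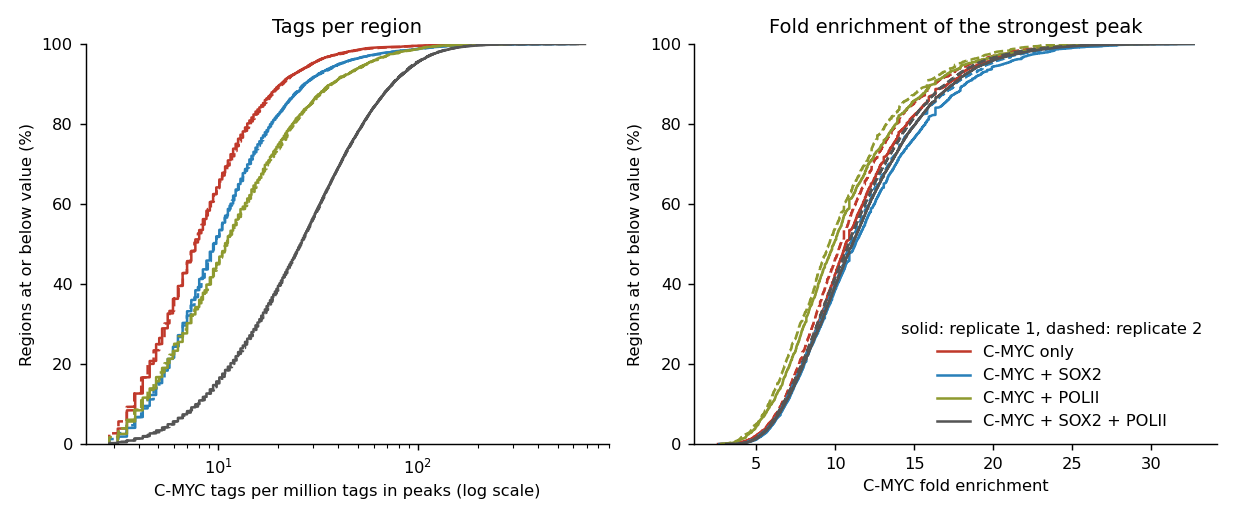
Cumulative share of regions (%) against C-MYC tags per 1000000 tags in peaks (log scale) and against fold enrichment of the strongest peak, for the 4 classes of C-MYC regions, with solid lines for replicate 1 and dashed lines for replicate 2. The tag curves of C-MYC-only regions (medians 7.70 and 7.61) lie to the left of those with all 3 proteins (medians 25.9 and 26.0), whereas the fold curves of the classes lie close together.

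Fold enrichment, a deposited linear ratio of peak to background, hardly separated the classes. Its median at C-MYC-only regions was 10.7 in replicate 1 and 10.3 in replicate 2. Regions with all 3 proteins had medians of 11.1 and 10.8, and regions with C-MYC and SOX2 had 11.3 and 10.95. Regions with C-MYC and POLII had the lowest medians, 9.90 and 9.61, so C-MYC-only regions lay between the classes with 1 partner. A fold enrichment of at least 10 in both replicates was held by 3459 C-MYC-only regions (46.8%), against 51.3% of all C-MYC regions. The direction of the fold comparison depended on the peaks admitted. With C-MYC peaks limited to a score (10 times the −log10 of the p-value) of at least 100, the median fold of C-MYC-only regions was 1.15 times that of the other C-MYC regions, against 0.964 times with all peaks. That limit was met in both replicates by 20.95% of C-MYC-only regions and by 74.7% of regions with all 3 proteins. The filter thus acted unequally on the classes, and its effect on the fold cannot be told apart from that of the class.

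Between C-MYC-only regions and regions with all 3 proteins, the median score differed clearly, as the tags did and the fold did not. This did not hold for every region. The C-MYC-only region with the most tags, chr6:145666725-145672636, had scores of only 87.2 and 143. The one with the highest fold, chr12:120264870-120265205, had 162 and 174 from few tags. C-MYC-only regions had median scores of 78.3 and 79.4, and regions with all 3 proteins had 177 and 180. A score of at least 100 in both replicates was reached by 1550 C-MYC-only regions (20.95%), against 55.4% of all C-MYC regions. It was reached by 37.9% of regions with C-MYC and SOX2, 31.0% of those with C-MYC and POLII and 74.7% of those with all 3. A larger part of the C-MYC-only regions therefore lay near the calling threshold, which was a score of 50 in every list. A score under 60 in at least 1 replicate was found at 2307 of them (31.2%), against 13.6% of all C-MYC regions. At the other end, 232 (3.14%) held 100 tags or more in both replicates, against 23.2% of all C-MYC regions.

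C-MYC-only regions were also short. Their median length was 640 bp, against 714 bp with SOX2, 780.5 bp with POLII and 1104 bp with all 3. The classes differed in the same direction per length, where the median density was 34.5 and 38.2 tags per kb at C-MYC-only regions and 64.9 and 71.2 at regions with all 3. Tags rose with length among C-MYC-only regions, with Spearman's rho of 0.76 and 0.78 over the 7397 regions, which share the same libraries and whose tags are counted over that length. The share of C-MYC-only regions fell with length too, from 45.1% in the shortest decile of C-MYC regions to 4.84% in the longest. Under the 1 bp rule a longer region has more bases at which a partner peak can touch it, and the part of this in these shares was not tested.

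The share of C-MYC-only regions fell steadily with C-MYC tags and barely with fold. Among the 10% of C-MYC regions with the fewest tags in replicate 1 (9 to 14 tags), 49.3% were C-MYC-only. In the fifth decile the share was 20.2%, and among the 10% with the most tags (172 to 1959) it was 1.96%. Replicate 2 gave 50.1% in the lowest and 2.24% in the highest decile. With regions ordered by fold enrichment in place of tags, the share stayed between 18.3% and 23.5% in replicate 1 and between 17.0% and 22.8% in replicate 2. Within tag deciles, C-MYC-only regions had a lower median fold than regions with all 3 proteins, in 20 of 20 comparisons over both replicates. These comparisons bin the same regions in both libraries and are not independent. In the lowest decile of replicate 1 the medians were 12.2 and 13.7, in the fifth 9.44 and 11.1, and in the highest 6.02 and 10.6. The highest decile held only 70 C-MYC-only regions. Distal chromosome 6, described below, held 71 of the 232 C-MYC-only regions with 100 tags or more in both replicates.

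**Figure D2:**
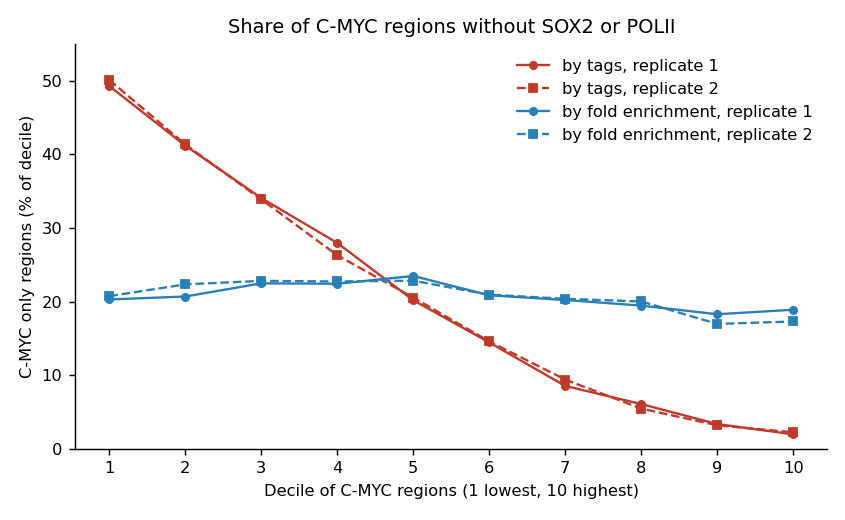
Share of C-MYC regions without SOX2 or POLII (% of each decile) against the decile of C-MYC regions ordered by tags or by fold enrichment, for each replicate. The share by tags falls from 49.3% to 1.96% in replicate 1 and from 50.1% to 2.24% in replicate 2, and the share by fold stays between 17.0% and 23.5%.

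C-MYC tags also rose with the number of SOX2 and POLII lists that held a peak on the region. From no list to all 4 lists, the median in replicate 1 was 22, 28, 47, 82 and 116 tags, over 7397, 6153, 7877, 11800 and 2496 regions. The same medians in replicate 2 were 24, 31, 54, 90 and 126 tags. The exception to this order came from POLII replicate 1, the list with the most peaks and the fewest tags. The 621 regions that this list alone touched had medians of 18 and 19 tags, below those of C-MYC-only regions. The 1521 regions touched by POLII replicate 2 alone had 37 and 42 tags. From no list to all 4 lists the median length rose as well, at 640, 726, 952, 1114 and 1281.5 bp. Tags were not compared at like lengths here.

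The rule turns on 1 bp, and the regions at its edge had varied values. The C-MYC-only region chr2:85092502-85093159 directly adjoined a POLII peak (gap of 0 bp), with 19 and 16 tags and fold enrichments of 11.9 and 6.49. The region chr5:111894925-111895578 was 1 bp from a POLII peak, with 14 and 17 tags and folds of 12.1 and 10.6. Both had tags within or just below the quartiles of the class. Another region with a gap of 0 bp, on chromosome 18, had 142 and 145 tags and lay far above them. Just outside it, chr1:88044205-88044784 shared 2 bp with a peak of POLII replicate 2 and had 28 and 27 tags. The region chr13:91318947-91319978 shared 4 bp with a peak of SOX2 replicate 2 and had 48 and 56 tags, and chr12:110191941-110192460 shared 6 bp with a peak of that list and had 17 and 24 tags. Such narrow contacts were rare, since 18 of the 6153 regions touched by 1 list shared 50 bp or less with it, and the median overlap was 570 bp.

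The distance from C-MYC-only regions to SOX2 and POLII peaks ranged widely. The median gap to the nearest peak of either was 5555 bp, with quartiles of 2435 and 11037 bp. A gap of at most 1 kb was found for 848 regions (11.5%) and of at most 5 kb for 3381 (45.7%), while 30 were more than 100 kb away. With the lists of each antibody pooled, the median gap was 7018 bp to POLII and 9816 bp to SOX2. This order did not hold list by list, where the medians were 12187 bp for SOX2 replicate 1, 13083 and 14768 bp for POLII replicates 1 and 2 and 18794 bp for SOX2 replicate 2, and the pooled POLII lists had more peaks. Where 1 partner was present, the median gap to the other was 6915 bp from regions with C-MYC and SOX2 to POLII, and 8833 bp from regions with C-MYC and POLII to SOX2.

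C-MYC tags fell and fold enrichment rose with that distance. The 848 regions within 1 kb of a SOX2 or POLII peak had medians of 27 and 30 tags and folds of 9.88 and 9.57. The 3331 regions at 5 to 20 kb had 21 and 23 tags and folds of 10.9 and 10.6. The 30 regions beyond 100 kb had 13 and 14 tags and folds of 17.9 and 17.6, so the most isolated regions held the fewest tags and the highest folds. The X chromosome held 13 of these 30. The 17 on autosomes had 13 and 13 tags and folds of 17.9 and 15.8. The most isolated of all was chrX:122886854-122887296, at 1240703 bp from the nearest peak, with 12 and 10 tags and folds of 21.9 and 17.6. Fold fell with tags over the whole class, with Spearman's rho of -0.32 and -0.30, and every listed peak had a score of at least 50. Folds at different distances were not compared at like tags.

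**Figure D3:**
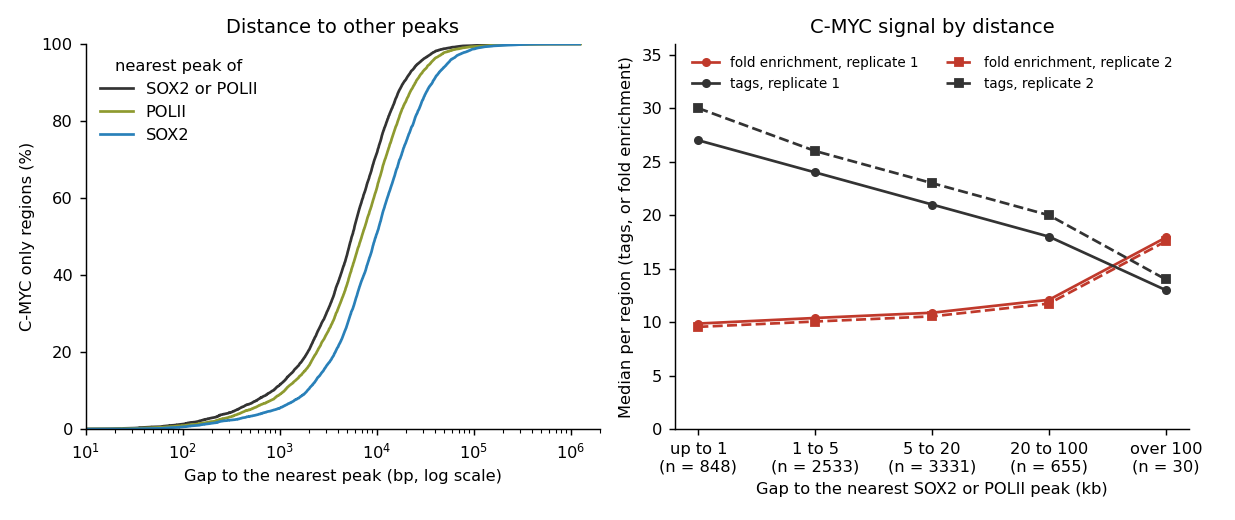
Left, cumulative share of C-MYC-only regions (%) against the gap to the nearest SOX2 or POLII peak (bp, log scale). Right, median C-MYC tags and fold enrichment per region by gap, with solid lines for replicate 1 and dashed lines for replicate 2, where tags fall from 27 and 30 within 1 kb to 13 and 14 beyond 100 kb and fold rises from 9.88 and 9.57 to 17.9 and 17.6.

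With respect to other C-MYC regions, C-MYC-only regions were placed much like the rest. The nearest other C-MYC region was at a median of 12061 bp, against 12453 bp for regions with all 3 proteins. Another C-MYC region lay within 10 kb of 43.4% of them, against 43.0% of all C-MYC regions. That neighbour was another C-MYC-only region in 22.8% of cases and a region with all 3 proteins in 55.2%. For regions with all 3 proteins the same shares were 19.8% and 59.96%. The next C-MYC-only region was at a median of 57418 bp, and 2439 (33.0%) had none within 100 kb. Such values depend on how many regions a class holds. They are not given here for the other classes, so they say nothing particular to this one.

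The summits of the 2 C-MYC replicates fell close together in C-MYC-only regions. The median distance between them was 17 bp, against 15 bp in regions with all 3. They were within 50 bp of each other in 6105 regions (82.5%), against 82.2% of all C-MYC regions. The tags of the replicates were within 1.5-fold of each other, after scaling, in 92.5% of C-MYC-only regions and in 95.6% of those with all 3. Across the 7397 regions, which come from the same 2 libraries and were required to have a peak in both, Spearman's rho between replicates was 0.93 for tags and 0.84 for fold.

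**Figure D4:**
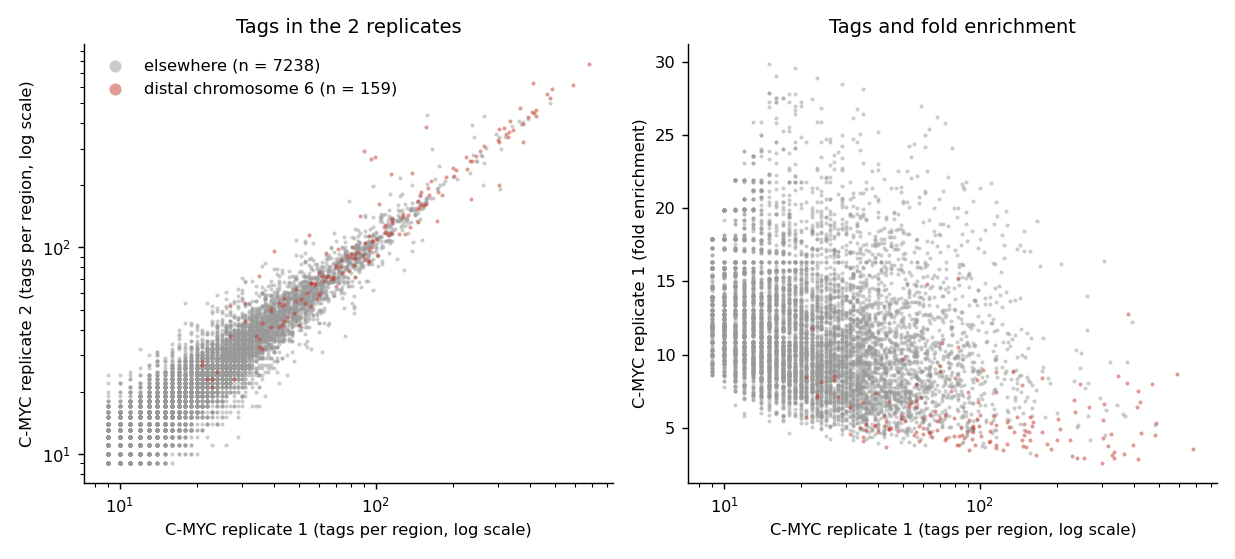
Each point is 1 C-MYC-only region. Left, tags in replicate 2 against tags in replicate 1 (both log scale), with Spearman's rho of 0.93. Right, fold enrichment against tags (log scale) in replicate 1, where regions with more tags have lower folds (rho of -0.32), and red points mark the 159 regions on distal chromosome 6, which hold 9 of the 10 highest tag values.

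C-MYC-only regions were found on all 19 autosomes and on X, and a stretch of 7 Mb at the distal end of chromosome 6 stood apart. On autosomes other than 6 they were between 18.8% and 22.4% of C-MYC regions. On distal chromosome 6, a stretch picked from these same data, they were 159 of 383 (41.5%, 95% Wilson interval 36.7 to 46.5), and on the rest of chromosome 6 405 of 1889 (21.4%). The 159 regions had medians of 94 and 105 tags, folds of 5.14 and 5.27 and a length of 1223 bp, so they had more tags and lower folds than the class as a whole. Neither trait was limited to C-MYC-only regions. Regions with C-MYC and POLII were 23.0% of the C-MYC regions there (interval 19.0 to 27.4) against 6.14% outside, and regions with all 3 proteins were 24.3% against 58.6%. Each of the other 3 classes also had higher median tags and lower median folds in this stretch than outside it, with folds in replicate 1 from 5.16 to 6.79 there. The 159 regions were 2.15% of C-MYC-only regions and held 9.43% and 9.74% of their tags. Of the 232 C-MYC-only regions with 100 tags or more in both replicates, 71 (30.6%) lay there. The same share over all C-MYC regions with that many tags is not given here, so this value says nothing particular to the class.

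The distal stretch of chromosome 6 held 9 of the 10 C-MYC-only regions with the most tags, and 49 of the 100 with the most. The same shares over all C-MYC regions are not given here, so these counts say nothing particular to the class. The highest and also the longest was chr6:145666725-145672636 (5912 bp), with 682 and 775 tags, and its folds were only 3.58 and 3.33. The second was chr6:146856872-146859113, with 590 and 611 tags and folds of 8.66 and 7.88. The third was chr6:145106585-145110141, with 488 and 586 tags and folds of 5.32 and 5.30. All 3 had folds below the medians of the class. Next came chr6:145514182-145516784, with 482 and 529 tags, and chr6:146429412-146431329, with 469 and 553. The only one of the 10 outside chromosome 6 was chr5:143666783-143670691, with 481 and 501 tags and folds of 5.21 and 5.35. The remaining 4 were chr6:146644655-146647346 (424 and 464 tags), chr6:144992641-144995608 (413 and 626 tags), chr6:146880170-146882526 (410 and 453 tags) and chr6:146999592-147001740 (414 and 447 tags). Of these, chr6:144992641-144995608 differed the most between replicates. The region with the most neighbours of its class was chr6:143743223-143744511, with 12 others within 100 kb, and the most outside this stretch was 10. Among the 100 C-MYC regions of any class with the most tags, 2 were C-MYC-only.

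The regions with the highest folds were of a different kind, short and with few tags. The highest was chr12:120264870-120265205 (336 bp), with folds of 29.9 and 28.6 from 15 and 20 tags. It was followed by chrX:141706398-141706736 (339 bp), with folds of 27.5 and 27.7 from 17 and 22 tags, and by chrX:157047827-157048226 (400 bp), with 27.4 and 27.3 from 22 and 19 tags. These folds rest on tag counts at or below the medians of the class. The fourth was chr6:76570794-76571299 (506 bp), outside the distal stretch, with folds of 27.2 and 26.9 from 18 and 19 tags. The fifth was chr14:104853028-104853411 (384 bp), with 26.7 and 27.5 from 19 and 22 tags. Among the 100 C-MYC regions of any class with the highest folds, 18 were C-MYC-only, near their share of all regions.

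On X, C-MYC-only regions had few tags and high folds. They were 146 of 768 C-MYC regions there (19.0%, interval 16.4 to 21.9), which is near the share on autosomes, but they were sparse, with 0.876 per Mb against 2.17 to 4.62 on the autosomes. C-MYC regions of all classes were sparse on X too, with 4.61 per Mb against 10.05 to 20.7. Their median tags were 14 and 17, against 22 and 25 on autosomes, and their median folds 14.5 and 15.1, against 10.6 and 10.3. No autosome had a median fold above 11.37 in replicate 1 or 11.22 in replicate 2. The fold was also higher on X within the same broad ranges of tags and of distance, by differing amounts. Tags were not matched within these ranges. At a mean of at most 20 tags the median tags were 12 and 14 on X and 14 and 15 on autosomes. Within 20 kb of a SOX2 or POLII peak they were 18 and 18 on X and 23 and 25 on autosomes. Among C-MYC-only regions with a mean of at most 20 tags, replicate 1 had a median fold of 15.9 on X (101 regions) and 11.9 on autosomes (2982 regions). Among those with a mean over 20 tags the medians were closer, 10.6 on X (45 regions) and 9.61 on autosomes (4269 regions). Within 20 kb of a SOX2 or POLII peak the median fold was 13.1 on X (83 regions) and 10.5 on autosomes (6629 regions). Every other class also had a higher median fold on X in replicate 1. The medians were 15.6 on X and 11.2 on autosomes for regions with C-MYC and SOX2, and 13.8 and 9.84 for those with C-MYC and POLII. Regions with all 3 proteins had 12.15 on X (484 regions) and 11.1 on autosomes (20300 regions). Differences between the classes in this respect were not tested.

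**Figure D5:**
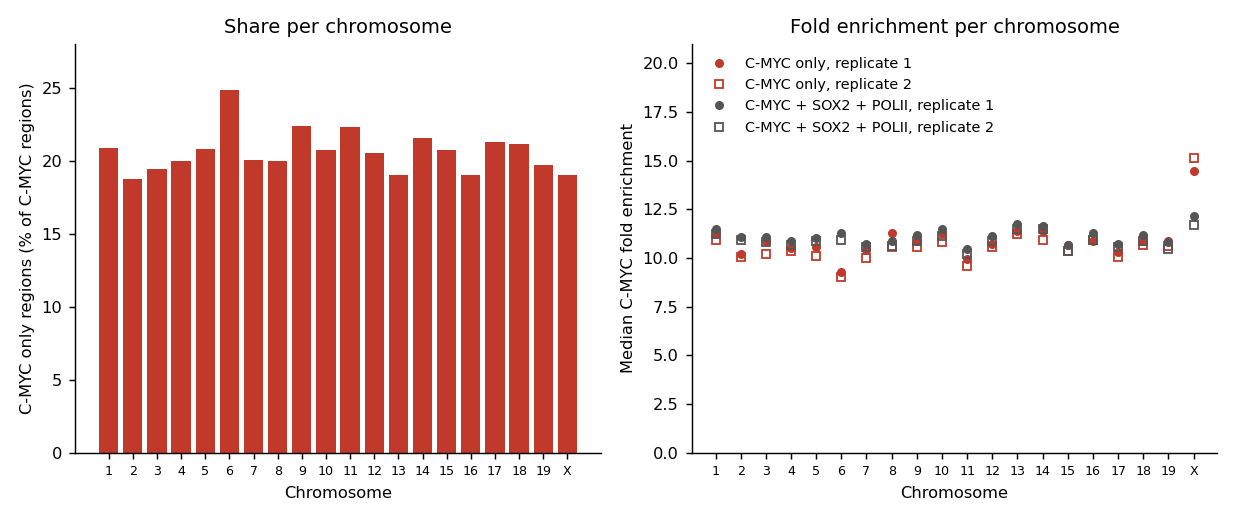
Left, share of C-MYC regions that are C-MYC-only (%) on each chromosome. Right, median fold enrichment of C-MYC-only regions on each chromosome in each replicate, where X (14.5 and 15.1) lies above every autosome and chromosome 6 has the highest share (24.8%).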

How the data were processed

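ChIP-seq peak lists of iMOP cells were analysed for POLII, C-MYC and SOX2, 2 replicates each. The authors called peaks in each replicate separately. The aligner, peak caller and filters are not given in the sources used here, and the build, mm9, comes from the submitters' processing notes. Peaks reached 197168049 on chromosome 1, past the last gene end (195291439) of the GRCm38 table at hand, so that table was not used. The deposited tags are raw counts per peak, which depend on depth. The deposited score is 10 times the −log10 of a p-value, at most 1e-05 in every list. The deposited fold enrichment is a ratio over a background that is not stated.

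Regions were built with pandas 2.3.3, numpy 2.4.6 and scipy 1.17.1 under python 3.11.15, and drawn with matplotlib 3.10.9. Tags of a region were summed over its peaks and its fold and score were those of its highest peak. Scaled tags are per 1000000 tags in the C-MYC peaks of a replicate. Gaps were counted from edge to edge. Overlaps were checked against bedtools 2.31.1 for 4 of 4 lists, and the scripts were tested on simulated regions, where 6 of 6 quantities were recovered.

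The class, the lists and distal chromosome 6 were chosen with earlier results of these data known, and the limits of a score of 60, 20 tags and 100 tags and the comparisons of X and of distal chromosome 6 with other chromosomes by class were added after values were seen. Named were the 10 regions with the most scaled tags and the 5 with the highest fold (lower replicate), the longest, the one with the most neighbours within 100 kb, and those at the edge of the rule. The most isolated region was named after its value was seen. Designed counts of E-boxes and of distances to TSSs were not run, for want of an mm9 genome and annotation. The alternatives were another overlap or summit rule, distances of 1 and 5 kb, the higher-scoring 50% of peaks, a C-MYC score of at least 100, equal numbers of peaks, no distal chromosome 6, and leaving out each list.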

Additional observations from a re-analysis of the deposited data

How the results depend on the processing

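Of 96 recomputed values, 33 stayed within narrow limits, 60 moved past them and 3 reversed. The limits were 1.5 times for a count of regions, the 95% Wilson interval for a share and, for a ratio, 1 SD of its values in the C-MYC replicates, which serves only as a yardstick here. The tag ratio of C-MYC-only to other C-MYC regions (0.380) was below 1 in 14 of 14 alternatives, and the fold ratio (0.964) in 11 of 14. The fold ratio reversed to 1.12 with the higher-scoring 50% of peaks, 1.15 with a C-MYC score of at least 100 and 1.09 with the 26637 highest-scoring peaks from every list. All 3 settings select peaks by score, and the cause of the reversal was not tested. The score limit of 100 applied to the C-MYC lists only. The other settings also dropped SOX2 and POLII peaks, so a region whose partner peak was dropped counts there as C-MYC-only. Those settings therefore describe partly different regions. Under these 3 settings, in that order, the regions numbered 3786, 1550 and 3217, their share was 19.8%, 7.84% and 13.8%, the tag ratio 0.5003, 0.480 and 0.451, the length ratio 0.684, 0.652 and 0.665 (0.647 as reported), the share with another such region within 100 kb 50.3%, 27.0% and 43.9% (67.0% as reported), and the share with summits within 50 bp 89.99%, 91.5% and 89.2%. Of the 7397 regions, 1422 were among the 3786 and 2409 among the 3217. A SOX2 or POLII summit in the region gave a share of 21.7%, a fold ratio of 0.956 and 68.2% with a neighbour. No peak within 1 kb gave a share of 18.3%, ratios of 0.390 for tags, 0.990 for fold and 0.654 for length, and 63.0% with a neighbour. No peak within 5 kb gave 4016 regions, a share of 11.2%, ratios of 0.994 for fold and 0.669 for length, and 47.8% with a neighbour. Without distal chromosome 6 the fold ratio was 0.979 and the length ratio 0.642.

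Leaving out 1 list at a time gave 8018 to 12477 regions, a share of 22.4% to 28.3%, a tag ratio of 0.339 to 0.408, a fold ratio of 0.945 to 0.986, a length ratio of 0.603 to 0.667 and 68.6% to 80.3% with a neighbour. Close summits made up 81.8% to 82.6% in the 4 omissions that keep both C-MYC lists, and have no value in the other two. Both highest counts came from leaving out a C-MYC list, with 12477 without replicate 1 and 11497 without replicate 2. No paired analysis was possible because no result came from a test and the replicates of different antibodies are not compared. Depth limits the class at both ends: a SOX2 or POLII signal below the calling threshold counts as absent, and 36.6% of the regions held 20 tags or fewer in both C-MYC replicates, against 15.9% of all C-MYC regions.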
